A study of Rattus with 9 samples.

Results

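The cytosolic ribosome makes every protein encoded by nuclear mRNA, and the genes for its proteins were taken here as 1 module in rat sensory ganglia after myocardial infarction. Members were all rows of the count table whose symbol is Rpl or Rps followed by a number, with an optional letter, l or x suffix, or is Rplp0, Rplp1, Rplp2 or Rpsa, with a mean of at least 10 reads; the S6 kinases were left out. This gave 78 members among the 17378 genes of the table, 46 of the large and 32 of the small subunit, and all 78 entered the test. Another 3 rows carried a matching symbol and fell under the minimum. Just outside it lay Rpl3l, a muscle paralogue of Rpl3, with a mean of 3.67 reads, Rpl37a with 3.11 and Rpl39l with 2; just inside lay Rps21 with 40.1 and Rps27l with 145.

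The ganglia were dorsal root ganglia of thoracic segments 1 to 4, which hold the cell bodies of the sensory neurons of the chest together with glia, macrophages and vessels. They came from SD rats that had undergone either coronary ligation (MI, n = 5, named CHF in the tables) or a sham operation (n = 4), 8 weeks before collection, and each library is labelled as a separate rat. Age and sex are not given in the sources used here, and no further allele or agent is named for either group. Libraries held 5656582 to 6861355 counts over all genes. All 15 neuron markers were detected in every library, with a summed level of 28634 to 32358 CPM (counts per 1e6 reads after TMM scaling) in MI and 29113 to 30300 CPM in sham ganglia. Because whole ganglia were sequenced, fewer cells of a type and less RNA per cell cannot be told apart.

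A ribosome carries 1 copy of nearly every ribosomal protein, and cells keep their supply in balance. The mRNAs are short, stable and very abundant, and in mammals most begin with a terminal oligopyrimidine tract through which mTOR signalling sets their translation. In sensory neurons they are also found in axons, where proteins are made far from the cell body.

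Ribosomal protein mRNAs were among the abundant transcripts of the ganglion, and their levels spanned a wide range. Levels are compared between genes in RPKM (reads per kilobase of gene, scaled to sequencing depth), which the authors computed. The median member stood at 139 RPKM, against 8.12 RPKM for the median of all tested genes, and 97.3% of tested genes lay below the median member. Of the 78 members, 56 had a mean of at least 100 RPKM. The middle of the distribution was narrow, with quartiles at 92.8 and 210 RPKM. Large-subunit genes had a median of 138 RPKM and small-subunit genes one of 148 RPKM.

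**Figure D1:**
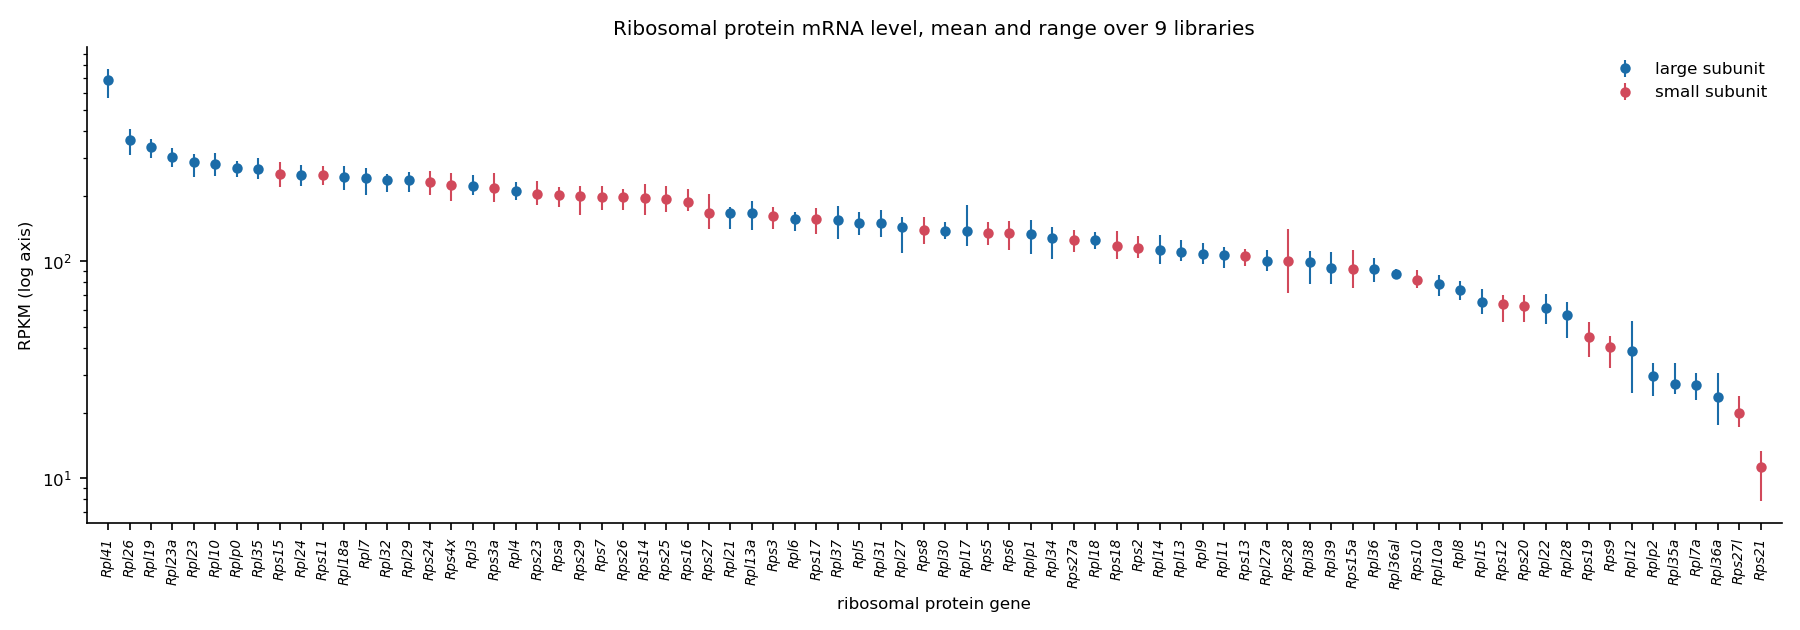
RPKM on a log axis for each of the 78 ribosomal protein genes, ordered by mean; points are means over 9 libraries, bars run from the lowest to the highest library, and colour marks the subunit. Rpl41 stands alone at the top with 688 RPKM, the quartiles are 92.8 and 210 RPKM, and Rps21 is lowest with 11.3 RPKM.

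The highest level belonged to Rpl41, which encodes the smallest and most basic protein of the large subunit, with 688 ± 59.8 RPKM (SD over 9 libraries). Rpl26 followed with 361 ± 35.4 RPKM, then Rpl19 with 336 ± 22.9, Rpl23a, part of the exit site of the nascent chain, with 303 ± 18.0, and Rpl23 with 286 ± 23.4. At the low end, Rps21 stood at 11.3 ± 1.86 RPKM, Rps27l, a p53-induced paralogue of Rps27, at 20.1 ± 2.29, Rpl36a at 23.8 ± 4.01, Rpl7a at 26.8 ± 2.55 and Rpl35a at 27.4 ± 3.09. The order was nearly the same in both groups (Spearman's rho = 0.997 across the 78 genes, between MI and sham means of the same table). Neighbours in this order mostly lay close together: in 70 of 77 neighbouring pairs the gap was smaller than the larger SD of the pair. That SD includes movement between libraries that the members share, described further on. It therefore cannot show whether 2 genes keep their order within each library.

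RPKM depend on the gene length that reads are divided by. Dividing reads by RPKM and by total reads gave the length the authors used, which agreed between libraries to 0.136% or better for every member. It ran from 318 to 3387 bases with a median of 700.5. Rpl7a was scaled by 3387 bases, Rpl8 by 2477 and Rpl9 by 2075, the only members above 2000. Rpl7a was among the 5 lowest members in RPKM although its mean of 935 reads per library was close to the 932 of Rps25, a gene of 466 bases at 194 RPKM. Across members, length and RPKM had a Spearman's rho of -0.30.

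Copies elsewhere in the genome are a second limit on single levels. Ribosomal protein mRNAs have given rise to many processed pseudogenes, whose sequence is close to that of the parent. Of the 78 members, 77 have a RefSeq entry under the same symbol in the rat assembly GRCr8, and 77 have at least 1 pseudogene named after them there, 850 in all, with a median of 10.5 and a highest number of 34 for Rps2. The number of pseudogenes and the RPKM had a rho of 0.17. Only 2 pseudogene rows of this family are in the count table. Of these, Rpl37a-ps1 drew 839 to 1170 reads per library while Rpl37a itself drew 0 to 7. Whether reads of Rpl37a were placed on Rpl37a-ps1 was not tested. The low level of Rpl37a, Rps21 or Rpl36a in these tables is uncertain, since the sources used here do not say how reads with several matches were placed. In 17 members, Rpl7a, Rpl17, Rpl28 and Rpl35a among them, the authors' estimated counts held fractions.

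No ribosomal protein gene passed the test between MI and sham ganglia. The test was the edgeR likelihood-ratio test over 11711 genes, and at an adjusted p under 0.05 it called 0 of 78 members, where it called 0.0171% of all tested genes. The quasi-likelihood test of the same package also called 0 members and 0% of all genes. At an unadjusted p under 0.05, 1 member passed by either test, against 4.64% of all genes by the likelihood-ratio test and 5.14% by the quasi-likelihood test. The MI and sham libraries did not overlap for 0 of 78 members and for 1.74% of all genes. The differences were small: 73 of 78 members had a log2 fold change within 0.1 of 0, and 53 within 0.05. The median absolute log2 fold change was 0.03 over the members and 0.07 over all genes, and the standard errors of the members' differences lay between 0.04 and 0.22 with a median of 0.09. Members and all genes were not matched in level. The members' values are not separate results, since members move together between libraries.

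More members lay above 0 than below, 53 against 25 (67.9% above), with a median log2 fold change of 0.02. Over all tested genes 50.8% lay above 0, with a median of 0.00175. Among the 521 other tested genes under 800 bases the share was near that of the members, 64.9%, with a median of 0.04. Both subunits had nearly the same share, 31 of 46 large-subunit and 22 of 32 small-subunit genes. This count rested on single rats, since the members rise and fall together, as described further on. Without Sham 2, 16 of 78 members were higher in MI and the median was -0.03. Without Sham 3, 73 of 78 were higher and the median was 0.07; without MI 4 these were 72 and 0.05, without MI 2 34 and -0.01, and without MI 3 39 and -0.000174.

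**Figure D2:**
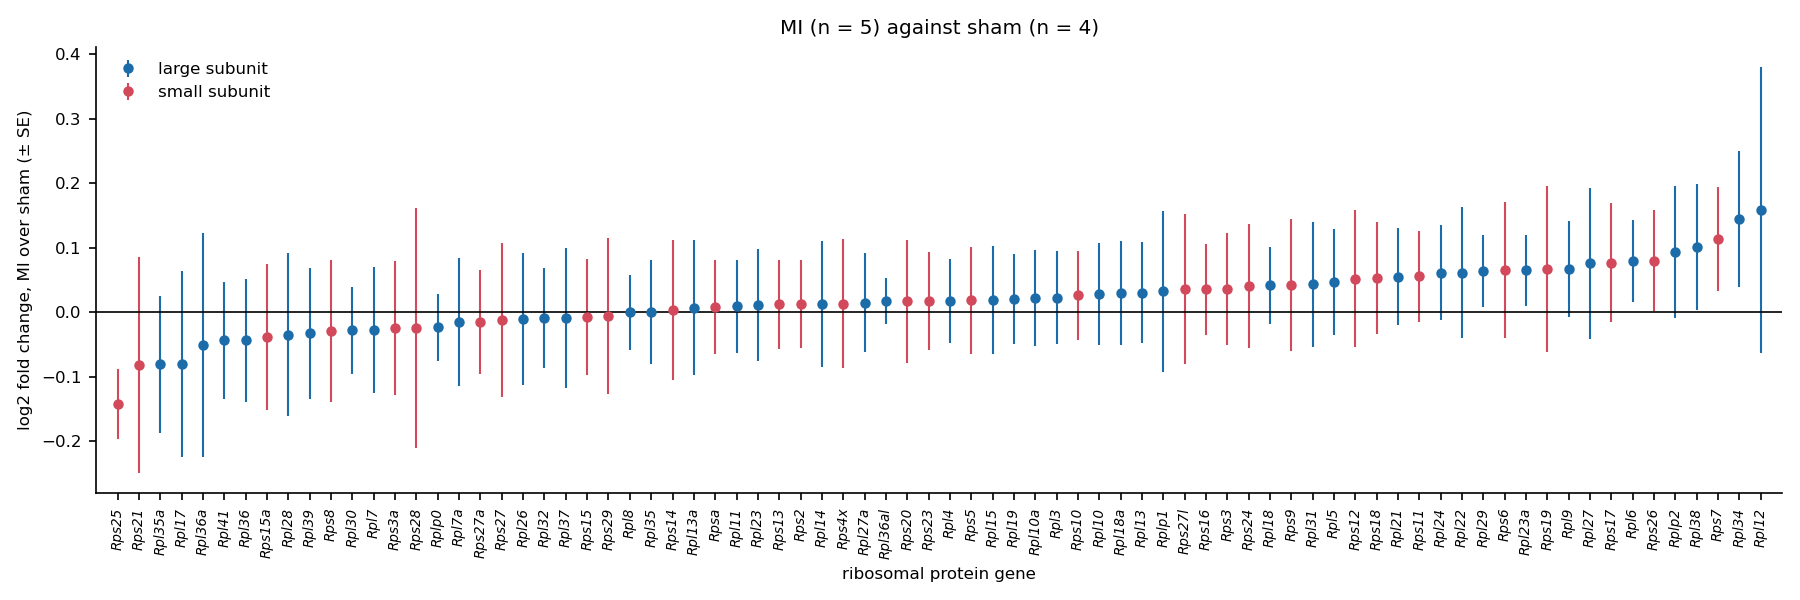
Log2 fold change of MI (n = 5) over sham (n = 4) for the 78 ribosomal protein genes, ordered by value, with bars of 1 SE of the difference in log2 CPM and colour for the subunit. Values run from -0.14 for Rps25 to 0.16 for Rpl12, and none passed the test over all genes.

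The smallest p among members belonged to Rps25, a protein of the head of the small subunit that viral and some cellular internal entry sites need. It stood at 154, 155, 171 and 152 CPM in Sham 1 to 4 and at 148, 153, 131, 140 and 144 CPM in MI 1 to 5. Only MI 2 lay above the lowest sham library. Its log2 fold change was -0.14 (SE 0.05), with an unadjusted p of 0.0215 and an adjusted p of 0.985 by the edgeR likelihood-ratio test. In the fits without 1 library the value ranged from -0.17 to -0.11.

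Next came Rpl34, with 88.9, 71.9, 93.6 and 88.4 CPM in Sham 1 to 4 and 100.1, 101, 102, 80.1 and 89.9 CPM in MI 1 to 5. Its log2 fold change was 0.14 (SE 0.11, adjusted p = 0.9996, edgeR), and MI 4 and MI 5 lay within the sham range. Rps7, which like Rpl5 and Rpl11 can bind Mdm2, the ligase that degrades p53, had 210, 186, 226 and 197 CPM in sham and 225, 237, 240, 199 and 206 CPM in MI ganglia, a log2 fold change of 0.11 (SE 0.08). Rpl6 had a log2 fold change of 0.08 (SE 0.06), Rpl38, which in mouse is needed for the translation of Hox mRNAs, 0.10 (SE 0.10), and Rpl23a 0.07 (SE 0.06).

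Among members with a value below 0, Rpl35a had a log2 fold change of -0.08 (SE 0.11), Rpl17 -0.08 (SE 0.14), Rpl41 -0.04 (SE 0.09) and Rpl36 -0.04 (SE 0.10). None of these values exceeded 1 SE. In the 8000 genes of the authors' deposited table, 46 members are listed and none has an FDR under 0.05, which 0.750% of its genes have. The rows of the authors' deposited table held here reach only to a p of 0.712, so members with a larger p are not among the 46, and a share of its genes is not one of all genes tested. The smallest FDR of a member in the authors' deposited table is 0.928, for Rps25, with a fold of 0.905 of MI over sham. That table and the test above rest on the same libraries.

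Genes of the functional centres of the ribosome showed the same small differences. The stalk that recruits elongation factors is built from Rplp0, Rplp1 and Rplp2. Rplp0 stood at 507, 462, 507 and 486 CPM in Sham 1 to 4 and 474, 521, 499, 445 and 474 CPM in MI 1 to 5, a log2 fold change of -0.02 (SE 0.05). Its partners had 0.03 (SE 0.12, Rplp1) and 0.09 (SE 0.10, Rplp2). The levels of the stalk genes were unequal, at 269 ± 14.1 RPKM for Rplp0, 133 ± 16.2 for Rplp1 and 29.6 ± 3.12 for Rplp2.

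Rpl5 and Rpl11 carry the 5S ribosomal RNA into the large subunit and, when assembly is disturbed, hold back Mdm2 and so stabilise p53. Rpl5 had a log2 fold change of 0.05 (SE 0.08) and Rpl11 one of 0.01 (SE 0.07). For Rpl10, which completes the large subunit next to the peptidyl transferase centre, and Rpl3, which lies near the same centre, the values were 0.03 (SE 0.08) and 0.02 (SE 0.07). Rpl13a, which can leave the ribosome after interferon to silence inflammatory mRNAs, had 0.01 (SE 0.10).

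In the small subunit, Rps6 is the protein that S6 kinase phosphorylates when mTOR is active, a mark often used for active neurons. It stood at 341, 298, 407 and 345 CPM in Sham 1 to 4 and at 370, 402, 384, 317 and 347 CPM in MI 1 to 5. The MI values lay inside the sham range, with a log2 fold change of 0.07 (SE 0.11). Rps3, at the entry of the mRNA channel and also an enzyme of DNA repair, had 0.04 (SE 0.09), Rpsa, the laminin receptor precursor, 0.01 (SE 0.07), Rps4x 0.01 (SE 0.10), and Rps27a, which is made as a fusion with ubiquitin, -0.02 (SE 0.08).

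Rats differed from each other far more than the groups did, and they differed in nearly the whole module at once. Members took up 1.496, 1.33, 1.67 and 1.48% of all counts in Sham 1 to 4 and 1.53, 1.63, 1.58, 1.36 and 1.47% in MI 1 to 5. Sham 2 and MI 4 were the low libraries and Sham 3 and MI 2 the high ones, so each group held a low and a high library. MI rats had a mean share of 1.51 ± 0.106% (SD, n = 5) and sham rats one of 1.49 ± 0.138% (SD, n = 4), a difference of 0.0210 percentage points that was smaller than either SD. Between the lowest and the highest library the share changed 1.25-fold. Exact 95% binomial intervals, which cover counting error only, were 1.32 to 1.34% for Sham 2 and 1.66 to 1.68% for Sham 3.

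**Figure D3:**
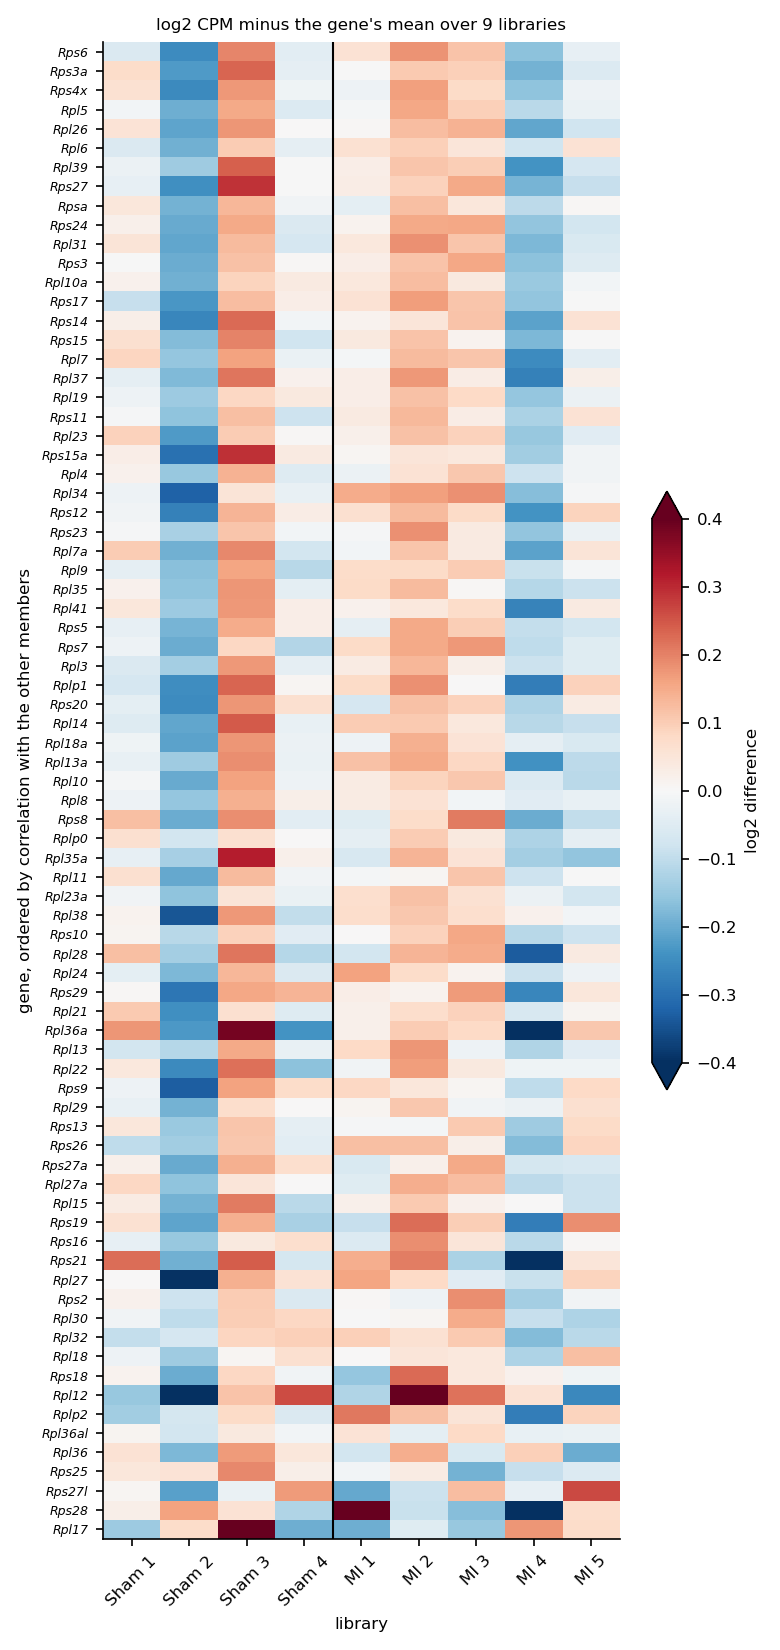
Log2 CPM of each ribosomal protein gene minus its own mean over 9 libraries, with Sham 1 to 4 left of the line and MI 1 to 5 right of it; genes are ordered by their correlation with the mean of the other members within groups, and the colour scale ends at 0.4 in either direction. The columns of Sham 2 and MI 4 are blue and those of Sham 3 and MI 2 red over most of the module, and Rpl17, Rps28, Rps27l and Rps25 at the bottom do not follow.

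Gene by gene, 75 of 78 members lay below their own mean in Sham 2 and 72 in MI 4, while 77 lay above it in Sham 3, 72 in MI 2 and 69 in MI 3. The lowest library was Sham 2 for 52 members and MI 4 for 21. For 56 members these were the lowest 2 libraries of the 9. On the log2 scale the average deviation of a member from its own mean was -0.19 in Sham 2, -0.14 in MI 4, 0.15 in Sham 3, 0.11 in MI 2 and 0.07 in MI 3; the other libraries lay between -0.02 and 0.02. Sham 2 and Sham 3 thus differed 1.26-fold in the average member.

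The subunits moved in step. In Sham 2 the mean deviation was -0.18 for large-subunit and -0.19 for small-subunit genes, in Sham 3 it was 0.15 for both, and in MI 4 it was -0.12 and -0.16. Large-subunit genes held 63.0 to 63.9% of member counts in the 9 libraries. Their mean share was 63.4 ± 0.386% in the 5 MI rats, against 63.5 ± 0.245% for the 4 sham rats (SD).

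After removal of the group means, the first principal component held 68.9% of the members' variance between libraries. The median correlation between 2 members was 0.78, and 97.4% of the 3003 pairs were positive. These correlations are a description over 9 libraries, and all genes of a library share its depth and scaling. For comparison, the median was 0.04 among 70 mitochondrial ribosomal protein genes, 0.02 among 35 translation initiation factors, and -0.000207 among the 9648 other genes in the members' range of level. It was 0.22 among 13 elongation factors and partners, and 0.71 among the 3 tested ribosomal protein genes under other symbols. These lists were not matched to the members gene by gene in level, and counting error lowers correlations more at low counts. In MI ganglia the 70 mitochondrial genes summed to 2578 to 2687 CPM and the 35 initiation factors to 6919 to 7197 CPM. The 78 members summed to 13717 to 16167 CPM. Shared movement was not particular to the module: the median correlation was 0.98 among 5 erythroid, 0.84 among 6 fibroblast and 0.82 among 6 skeletal muscle markers. The SD of log2 CPM within groups had a median of 0.13 over members and 0.14 over all tested genes. Among the 9648 other genes in the members' range of level it was slightly lower, 0.12. That range reaches down to Rps21, the lowest member, and these genes were not matched to the members in level. Counting error raises the SD more at low counts. For the median member the SD was 2.94 times what read counting alone gives. The tagwise dispersion had a median of 0.00588 over members, 0.00586 over all tested genes and 0.00496 over the 9648 genes. The difference in spread was not tested.

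Rps6 followed the mean of the other members most closely, with a correlation of 0.99 within groups, then Rps3a and Rps4x with 0.99 and 0.98. Of the 78 members, 62 had a correlation over 0.8. Only 4 had one of 0.5 or less: Rpl17 with 0.02, Rps28 with 0.13, Rps27l with 0.18 and Rps25 with 0.44. These 4 were named after their values were seen.

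Rpl17, a protein at the mouth of the exit tunnel, stood at 125, 146, 184 and 121 CPM in Sham 1 to 4 and at 121, 134, 124, 156 and 145 CPM in MI 1 to 5. It was high in Sham 3 like the rest of the module, but also above its mean in MI 4 and Sham 2. Rps28 had 56.1, 61.8, 57.5 and 50.8 CPM in sham and 78.9, 51.9, 49.0, 40.5 and 57.9 CPM in MI ganglia, with MI 1 highest and MI 4 lowest. Both are among the 5 members with the largest dispersion, together with Rpl12, Rpl36a and Rps21.

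Rpl12, which with the stalk forms the platform for elongation factors, was the most variable member. It stood at 40.6, 29.6, 48.8 and 54.2 CPM in Sham 1 to 4 and at 41.5, 63.1, 52.5, 47.0 and 37.7 CPM in MI 1 to 5. Its log2 fold change of 0.16 was the largest of the module and came with the largest standard error, 0.22. In the fits without 1 library it ranged from 0.01 to 0.28.

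Paralogues gave a further view of the module. Rpl36al, a paralogue of Rpl36a, varied least of all members, at 71.8, 67.7, 73.3 and 70.7 CPM in Sham 1 to 4 and 74.0, 69.3, 75.4, 69.8 and 70.0 CPM in MI 1 to 5. Rpl36a varied much more, at 29.4, 22.1, 34.0 and 22.0 CPM in sham and 26.4, 27.9, 27.5, 19.6 and 28.01 CPM in MI ganglia. Per length, Rpl36al was the higher of the pair in every library, with a ratio of RPKM from 2.92 in Sham 3 to 4.80 in MI 4. Its mean was 3.81 ± 0.588 over the 5 MI rats, and 3.67 ± 0.677 over the 4 sham rats (SD). For Rps27l over Rps27 the ratio ran from 0.0959 to 0.154. Rpl22l1, outside the symbol rule, and Rpl22 stood at nearly equal RPKM, with a ratio from 0.951 to 1.20. Reads of such pairs may be shared, so the ratios are uncertain.

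Other ribosomal protein genes carried symbols that the rule leaves out. Fau, whose product is a fusion of a ubiquitin-like protein with a ribosomal protein, Rack1, a scaffold on the small subunit, and Rpl22l1 were the 3 tested of 6 listed. All 3 had a log2 fold change above 0, with a median of 0.03, and none passed the test. Rack1 stood at 198, 171, 210 and 182 CPM in Sham 1 to 4 and at 203, 205, 195, 170 and 184 CPM in MI 1 to 5. Its low libraries were again Sham 2 and MI 4. The medians of the 3 genes by library ran from -0.17 in Sham 2 to 0.14 in Sham 3, with -0.16 in MI 4.

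**Figure D4:**
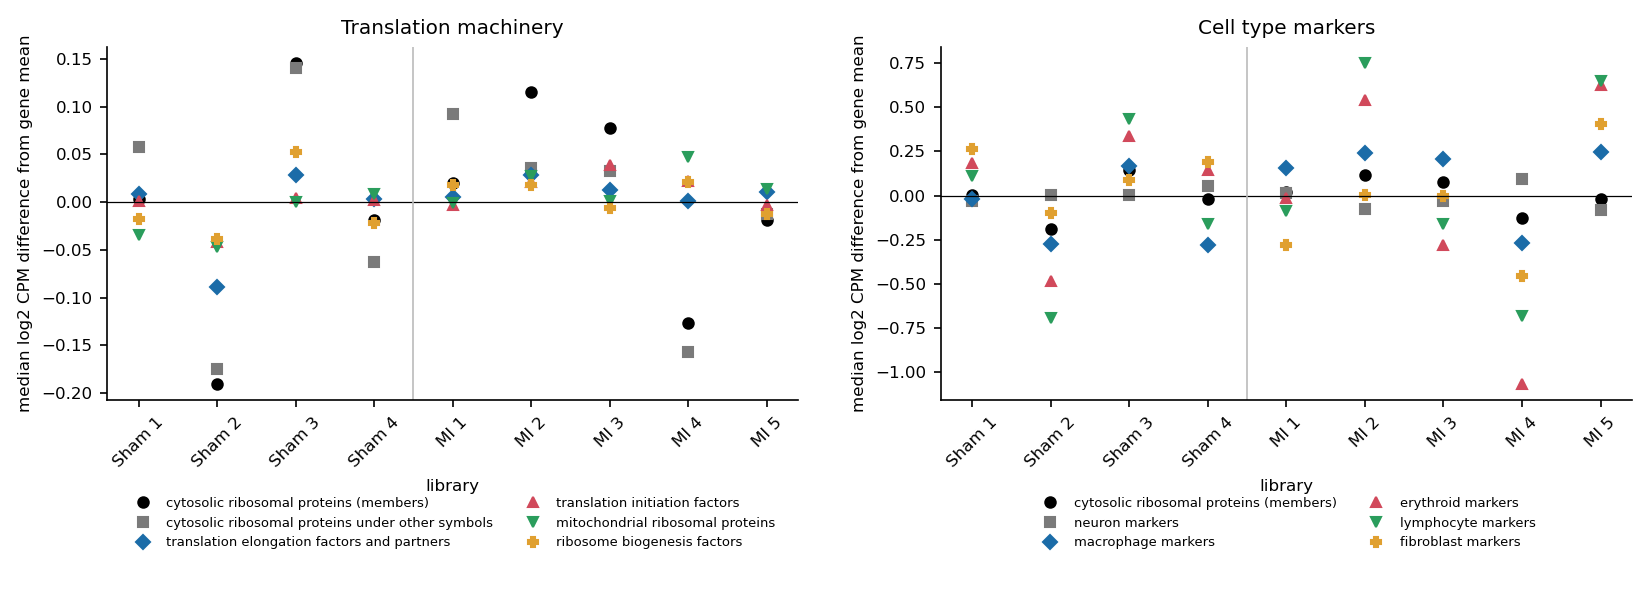
Median over each list of log2 CPM minus the gene's mean, for 9 libraries, with sham left and MI right of the line; the left panel holds lists of the translation machinery and the right panel cell type markers on a wider axis. The ribosomal protein members (black circles) and the ribosomal proteins under other symbols are low in Sham 2 and MI 4 and high in Sham 3, with member medians from -0.19 to 0.15, while initiation factors, mitochondrial ribosomal proteins and biogenesis factors lie between -0.05 (mitochondrial ribosomal proteins, Sham 2) and 0.0530 (biogenesis factors, Sham 3).

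The rest of the translation machinery was compared in the same libraries. No gene of these lists passed between MI and sham. Of 13 elongation factors and partners, 8 were higher in MI (median log2 fold change 0.02), of 35 initiation factors 26 (0.02), of 63 ribosome biogenesis factors 36 (0.01), of 70 mitochondrial ribosomal protein genes 42 (0.03), and of 23 mTOR, S6 kinase and Myc regulators 8 (-0.04). The genes with the smallest p were Eif3k, a subunit of initiation factor 3, at log2 0.22 (SE 0.07, adjusted p = 0.903), Taf1a, of the RNA polymerase I machinery, at -0.51 (SE 0.16, adjusted p = 0.802), Tsc2, a brake on mTOR, at -0.15 (SE 0.04, adjusted p = 0.985), and Mrpl41 at 0.17 (SE 0.05, adjusted p = 0.970), all by the edgeR likelihood-ratio test. Eef1b2 had 0.08 (SE 0.03).

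Between libraries, the medians of these lists moved less than that of the members. From the lowest to the highest library the median spanned 0.34 on the log2 scale for the members, 0.12 for the elongation list, 0.08 for initiation factors, 0.09 for biogenesis factors and 0.09 for mitochondrial ribosomal proteins. The difference in span was not tested. Within the elongation list, Eef1a1, the main elongation factor and itself the product of a terminal oligopyrimidine mRNA, stood at 2733, 2442, 2951 and 2649 CPM in Sham 1 to 4 and 2701, 2970, 2880, 2362 and 2605 CPM in MI 1 to 5, low in Sham 2 and MI 4 and high in Sham 3 and MI 2. Its neuronal and muscle paralogue Eef1a2 had 587, 647, 607 and 614 CPM in sham and 642, 542, 588, 618 and 615 CPM in MI ganglia, highest in Sham 2 and lowest in MI 2. Pabpc1, the poly-A binding protein, was again lowest in MI 4 (186 CPM) and Sham 2 (190 CPM). These genes were chosen after their values were seen.

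Several measures moved with the module across rats, and their part in it was not tested. Macrophage markers (10 of 10 listed genes detected in every library) summed to 299.8, 253, 347 and 263 CPM in Sham 1 to 4 and 318, 341, 366, 259 and 362 CPM in MI 1 to 5. Sham 2, MI 4 and Sham 4 were lowest, and for 7 of the 10 genes Sham 2 and MI 4 were among the lowest 3 libraries. Erythroid markers (5 of 5 detected) summed to 4865, 3005, 5301 and 4701 CPM in sham and 4238, 6286, 3517, 2077 and 6255 CPM in MI ganglia, and Sham 2 and MI 4 were among the lowest 3 for all 5. Of 10 lymphocyte markers 9 are in the table and 5 were tested; these summed to only 8.06 to 23.4 CPM in sham and 8.33 to 21.8 CPM in MI, lowest in Sham 2 and MI 4 and highest in Sham 3. MI 5 and MI 3 were exceptions. MI 5 had high macrophage, erythroid and lymphocyte sums (362, 6255 and 18.0 CPM) and a module share of only 1.47%. MI 3 had a high share, 1.58%, with a low erythroid sum of 3517 CPM and a lymphocyte sum of 13.4 CPM.

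**Figure D5:**
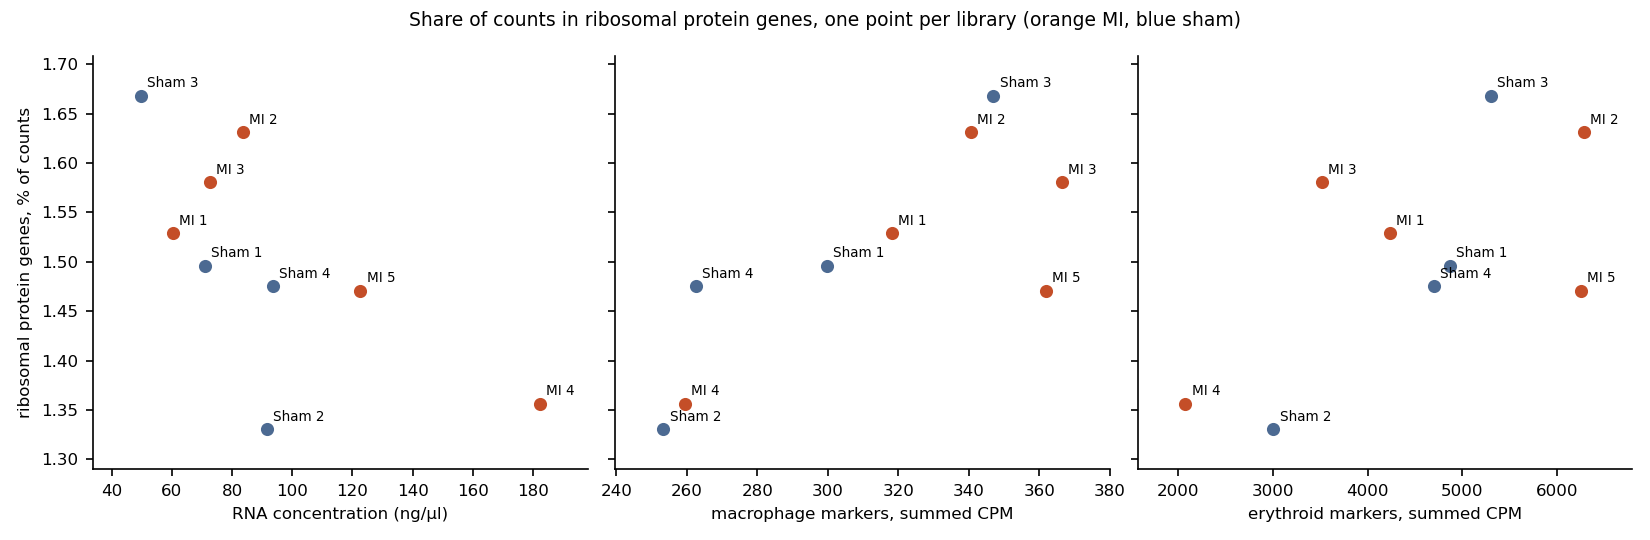
Share of counts in the 78 ribosomal protein genes against RNA concentration, summed CPM of macrophage markers and summed CPM of erythroid markers, 1 point per library, orange for MI and blue for sham. Sham 2 and MI 4 lie at the bottom of each panel, with 1.33 and 1.36%, and MI 4 has the highest RNA concentration, 182 ng/µl.

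The remaining marker lists differed in how far they moved with the module. Neuron markers were highest in MI 4, at 32358 CPM, and stood at 29194 CPM in Sham 2 and 29113 CPM in Sham 3. Satellite glia and Schwann cell markers (11 of 11) summed to 12467 to 15547 CPM in sham and 10492 to 16240 CPM in MI. Fibroblast markers (6 of 6) summed to 4437 to 5457 CPM in sham and 3478 to 6023 CPM in MI, lowest in MI 4, and Sham 2 and MI 4 were among the lowest 3 libraries for 4 of the 6 genes. That count was 2 of 5 for the lymphocyte, 2 of 10 for the endothelial and mural, 1 of 11 for the glial, 1 of 6 for the muscle and 0 of 15 for the neuron markers. Endothelial and mural markers (10 of 10) summed to 275 to 334 CPM in sham and 299 to 430 CPM in MI. Skeletal muscle markers (6 tested of 8) were low, with 22.9 to 104 CPM in sham and 17.5 to 86.6 CPM in MI, highest in Sham 3, and Myh2 was at 0 in at least 1 library.

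The RNA itself also differed between rats. Its concentration was 71.1, 91.7, 49.8 and 93.6 ng/µl in Sham 1 to 4 and 60.3, 83.6, 72.7, 182 and 123 ng/µl in MI 1 to 5. Sham 3, with the highest share of ribosomal protein counts, had the least RNA, and MI 4, with one of the lowest shares, had the most. Other libraries did not follow this order. Sham 2, with the lowest share, 1.33%, had nearly the concentration of Sham 4, whose share was 1.48%. MI 1, with the second lowest concentration, had a share of 1.53%. The concentration was used as a covariate in an alternative added after the data were seen. There, 74 of 78 members had a value above 0 for MI, with a median log2 fold change of 0.07. In this fit 0 members passed at an adjusted p under 0.05, and the smallest was 0.430. At an unadjusted p under 0.05, 7 members passed, as did 613 of all 11711 genes (edgeR likelihood-ratio test). Because members move together, these 7 are not separate results. RNA integrity numbers lay between 8 and 8.5 in all rats, with 8.4 in Sham 2, 8.2 in MI 4, 8.3 in Sham 3 and 8 in MI 2. The sum of other short transcripts was, like the module share, low in Sham 2 and MI 4. It was highest in MI 5, where the module share was only 1.47%. Their medians moved less than those of the members. The 521 other tested genes under 800 bases summed to 41312, 36092, 41490 and 40889 CPM in Sham 1 to 4 and 40318, 43592, 41065, 37928 and 43784 CPM in MI 1 to 5, again lowest in Sham 2 and MI 4. Their library medians ran from -0.08 in Sham 2 to 0.04 in MI 3, with 0.02 in MI 4 and 0.01 in Sham 3. Marker genes, such as the erythroid ones, were not taken out of this list, so its sums may include them. The part of transcript length in the module's movement was not tested.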

How the data were processed

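mRNA libraries of thoracic dorsal root ganglia came from 5 MI and 4 sham rats. The design text names cutadapt for trimming the 75 bp reads, STAR 2.3.0 for alignment to rn6 and Partek 6.6 for the gene annotation. Whole-number counts were deposited beside the estimated counts from which they were rounded. RPKM values were computed by the authors; total reads per library reproduce their scaling. The authors' deposited table gives a fold ratio, p-values and mean log2 CPM; 9 per-sample columns of it were not used. The deposited alignment summary gives percent of reads, and the deposited sample sheet the RNA integrity score and concentration.

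The test used edgeR 4.0.16 under R 4.3.3: filterByExpr kept 11711 genes, with TMM scaling, tagwise dispersions, the likelihood-ratio test named in the design text, and Benjamini-Hochberg adjustment over all tested genes. The SE is that of the group difference in log2 CPM (prior count 2), not of the edgeR coefficient. Alternatives included DESeq2 1.42.0 and limma 3.58.1. P-values set the group difference against the spread between rats.

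Members, lists and tests were chosen with earlier results of these data known. Named members were those with the 5 smallest p in each direction, the 5 highest and 5 lowest RPKM, the 5 largest dispersions, and a fixed set of roles and paralogues; of other lists, up to 2 genes with the smallest p. An item of the list of ribosomal proteins under other symbols is not reported here and was left out of that list's values.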

Additional observations from a re-analysis of the deposited data

Results flagged for a closer look

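In 74 groups of 4 or 5 libraries, the most extreme library was compared with its nearest neighbour by Dixon's criterion, which marks about 1 in 20 groups by chance (3.7 here); 3 were marked. MI 4 held the lowest Rpl41 level, 419.1 CPM, while the other MI rats lay between 510.4 and 530.8 CPM. It also held the lowest Rpl36a level, 19.65 CPM, with 26.39 to 28.01 CPM in the others. Large-subunit genes took 63.85% of member counts in Sham 2 and 63.34 to 63.38% in the other sham rats.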

How the results depend on the processing

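No ribosomal protein gene was called under any of the 25 alternatives, and the 35 named members kept their side of the threshold in all 875 values; 80 of these values, in 27 genes, had the other sign by less than the spread between libraries. Over the fits without 1 library the members' median log2 fold change ran from -0.03 to 0.07, the difference in share of counts from -0.0330 to 0.0795 percentage points, the spread of the members' mean from 0.0945 to 0.124 (log2), the large-subunit share difference from -0.158 to 0.0859 percentage points, and the count over all genes from 2 to 8 (8 without Sham 3 or without MI 1, 6 without MI 5, 4 without MI 4). Without Sham 2 the difference in share was -0.0330 points; without MI 2 it was also below 0. The count of called genes over all genes, 2 as reported, became 4 with upper-quartile scaling, 6 with no filter, 5 at an adjusted p under 0.10, 7 with RNA concentration as a covariate and 70 with 1 common dispersion; it became 0 by the quasi-likelihood test, limma-voom, and limma on log2(RPKM + 0.1) and log2(RPKM + 1). The causes were not tested. With the rat number as a replicate block on rats 1 to 4 it was 11, 0 of them members. The correlation of deviations between same-numbered rats lay between -0.14 and 0.09. Compared with rats of other numbers, it was below their range for rats 1 and 2, inside it for rat 3 and above it for rat 4. These correlations cannot show whether same-numbered rats were paired. Counts of 40.1 reads for Rps21 limit its precision most.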
